A study of Xenopus laevis with 6 samples.

Results

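Glutathione transferases join the thiol of glutathione to electrophilic compounds, which makes them more soluble and ready for export. The soluble enzymes fall into classes named by Greek letters, and adult liver and gut epithelium are known for high levels of several of them. Alpha and theta enzymes conjugate a range of lipid peroxidation products and foreign compounds, pi enzymes are known from epithelia outside the liver of mammals, and omega enzymes carry a cysteine in the active site and act mainly as thiol transferases and reductases. Xenopus laevis is allotetraploid, so many genes have an L copy and an S copy, on the long and short chromosomes of a pair. The genes described here are gsta1.L (alpha class), gstp1.L (pi), gsto1.S (omega) and gstt1.L (theta). They were taken by symbol: every probe set whose single gene symbol in the platform annotation is one of these 4. Each gene had 1 probe set, so there were 4 probe sets of 15491, for 4 genes of 7531 with a symbol of their own.

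RNA came from pancreas, liver and stomach buds of embryos at stage 42, a swimming tadpole stage at which the dorsal and ventral pancreatic buds have fused. Sex was mixed, and the labels name no strain, allele or treatment for any organ. Each organ had 2 Affymetrix arrays, 1 from each of 2 independent isolations of tissue, called isolations 1 and 2 here. The study looked for genes that the developing pancreas expresses above its neighbours. The buds hold mesoderm as well as endoderm, so the arrays measured mixed tissue, and in such samples fewer cells of a type and less RNA per cell cannot be told apart.

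The organ labels were checked against marker genes. Summed intensities of 11 pancreas marker genes were 113431 and 78003 on the pancreas arrays, with at most 725 in liver and 5274 in stomach. Summed intensities of 9 liver marker genes were 2986 and 962 in pancreas, 66300 and 53003 in liver and 531 and 459 in stomach. The 4 measured stomach markers, atp4b.S of the gastric proton pump, the aspartic protease genes ctse.L and ctse.S and the anterior gut factor sox2.L, summed to 48.0 and 490 in pancreas, 63.6 and 50.0 in liver and 12584 and 7181 in stomach, in the order of the isolations. Stomach marker signal was thus 10.2 times higher in pancreas isolation 2 than in pancreas isolation 1. Across probe sets, the 2 isolations of an organ had a Pearson r of 0.946 to 0.955, and arrays of different organs one of 0.850 to 0.904.

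The transferase genes gsta1.L, gstp1.L and gsto1.S had high signal in stomach alone, and gstt1.L had high signal in liver and stomach. Pancreas was far below stomach for all 4, though its values were above the array median of 100 except for gsto1.S in isolation 1. The genes were chosen by their intensities in the 3 organs on these same arrays, so their values by organ are given as a description and carry no test. Both pancreas arrays lay below both stomach arrays for 4 of the 4, as they did for 24.2% of all probe sets. Both liver arrays lay below both stomach arrays for 3 of the 4 (25.6% of all probe sets), and both pancreas arrays below both liver arrays for 1 of the 4 (24.6%). These counts follow from the choice of genes.

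**Figure D1:**
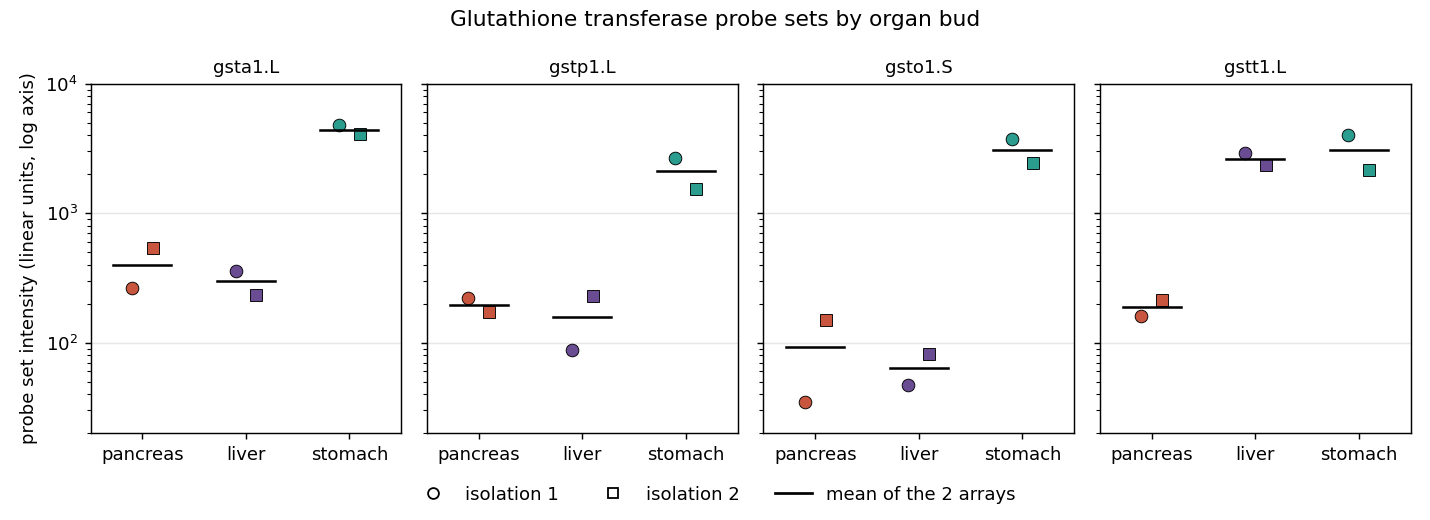
Intensity of the 4 glutathione transferase probe sets (log axis) in pancreas, liver and stomach buds, with circles for isolation 1, squares for isolation 2 and a bar at the mean of the 2 arrays. The stomach points of gsta1.L, gstp1.L and gsto1.S lie above all their pancreas and liver points, and the liver and stomach points of gstt1.L overlap.

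The alpha class gene gsta1.L had intensities of 265 and 537 in pancreas, 360 and 235 in liver and 4768 and 4075 in stomach (isolation 1, then isolation 2). Both stomach arrays stood far above the rest, and the pancreas and liver arrays overlapped. Means were 401 ± 192 in pancreas, 297 ± 88.5 in liver and 4422 ± 490 in stomach (SD, n = 2). The log2 difference of pancreas minus stomach was -3.55 (SE 0.417), 11.7-fold lower in pancreas. For liver minus stomach it was -3.92 (SE 0.417), 15.2-fold lower in liver. Pancreas and liver did not differ beyond their spread: pancreas minus liver was 0.38 (SE 0.417), and its sign differed between the isolations, at -0.44 in isolation 1 and 1.19 in isolation 2.

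The pi class gene gstp1.L had 221 and 173 in pancreas, 87.1 and 228 in liver and 2666 and 1535 in stomach. The stomach arrays again stood alone, while the liver arrays spanned the pancreas values. Means were 197 ± 34.4 in pancreas, 157 ± 99.4 in liver and 2100 ± 800 in stomach (SD, n = 2). Pancreas minus stomach was -3.37 on the log2 scale (SE 0.540), 10.3-fold lower in pancreas. Liver minus stomach was -3.84 (SE 0.540), 14.4-fold lower in liver, and this size depended on the liver array: it was 8.89-fold without liver replicate 1 and 23.2-fold without liver replicate 2. Pancreas minus liver was 0.47 (SE 0.540), within the spread.

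The omega class gene gsto1.S had the lowest signal outside stomach relative to stomach. It measured 34.8 and 149 in pancreas, 46.8 and 81.8 in liver and 3759 and 2438 in stomach. Every pancreas and liver array was far below both stomach arrays, and the 2 pancreas arrays themselves differed 4.28-fold. Means were 91.9 ± 80.7 in pancreas, 64.3 ± 24.8 in liver and 3098 ± 934 in stomach (SD, n = 2). Pancreas minus stomach was -5.39 (SE 0.748), 42.0-fold lower in pancreas, and liver minus stomach -5.61 (SE 0.748), 48.9-fold lower in liver. Ordered from the lowest difference, these were places 18 and 22 among the 15491 probe sets. The other genes low against stomach lay at places 87 (gstt1.L), 131 (gsta1.L) and 157 (gstp1.L) for pancreas minus stomach. Without pancreas replicate 1 the fold of gsto1.S between pancreas and stomach was 20.3, and without pancreas replicate 2 it was 86.9. With 16 added to every intensity the folds against stomach were 33.2 for pancreas and 38.8 for liver. Its values in pancreas isolation 1 and on both liver arrays were below the array median of 100, and values this low may be background. Pancreas minus liver was 0.22 (SE 0.748), and the arrays of these organs overlapped.

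The theta class gene gstt1.L differed from the other 3 in liver. It had 161 and 213 in pancreas, 2920 and 2335 in liver and 3996 and 2144 in stomach. The pancreas arrays stood below all others, and the liver values lay between the 2 stomach values. Means were 187 ± 36.6 in pancreas, 2628 ± 413 in liver and 3070 ± 1310 in stomach (SD, n = 2). Pancreas minus liver was -3.82 on the log2 scale (SE 0.368), 14.1-fold lower in pancreas. Pancreas minus stomach was -3.98 (SE 0.368), 15.8-fold lower in pancreas. Liver minus stomach was -0.16 (SE 0.368), with -0.45 in isolation 1 and 0.12 in isolation 2, so the order of liver and stomach was not settled by these arrays.

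Within single isolations the sizes of the organ differences varied. Pancreas was lower than stomach 18.0-fold in isolation 1 and 7.59-fold in isolation 2 for gsta1.L, and 12.0-fold and 8.89-fold for gstp1.L. For gsto1.S it was lower 108-fold and 16.4-fold, and for gstt1.L 24.8-fold and 10.1-fold. For all 4 genes the gap was wider in isolation 1. Stomach was higher in isolation 1 than in isolation 2 for each gene, by 1.17-fold (gsta1.L) to 1.86-fold (gstt1.L). Bright signal in general was also higher there: the 95th percentile of all intensities was 1431 in stomach isolation 1 and 1248 in stomach isolation 2. For pancreas it was 1537 and 1449, and for liver 1536 and 1433. In pancreas isolation 2 was the higher one for gsta1.L (2.02-fold), gsto1.S (4.28-fold) and gstt1.L (1.32-fold), and the lower one for gstp1.L (1.28-fold). Among probe sets with a mean over 100, the 95th percentile of the fold between isolations was 1.82 in pancreas, 1.82 in liver and 1.84 in stomach. The pancreas folds of gsta1.L and gsto1.S, the liver fold of gstp1.L (2.61) and the stomach fold of gstt1.L exceeded it. Over all probe sets, dim ones included, that percentile was 3.05 in pancreas, 3.49 in liver and 3.0 in stomach, and of these folds the pancreas fold of gsto1.S alone was above it.

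The 4 stomach markers were higher in pancreas isolation 2 than in pancreas isolation 1, as were gsta1.L, gsto1.S and gstt1.L but not gstp1.L. As a percentage of the stomach array of the same isolation, the 4 stomach markers together stood at 0.381% in pancreas isolation 1 and 6.83% in pancreas isolation 2. For gsto1.S the percentages were 0.927% and 6.11%, within the range of the single markers, which ran from 0.0714% (atp4b.S) to 0.947% (ctse.L) in isolation 1 and from 3.60% (ctse.S) to 9.56% (ctse.L) in isolation 2. The percentages were 5.56% and 13.2% for gsta1.L, 8.30% and 11.2% for gstp1.L and 4.04% and 9.94% for gstt1.L. In each isolation these 3 genes were above all 4 stomach markers. In pancreas isolation 1, atp4b.S, ctse.S and sox2.L had 5.1, 3.63 and 5.5, below their values in liver isolation 1 (14.5, 21.4 and 6.28). The fourth marker, ctse.L, had 33.7 there, above its 21.5 in liver isolation 1. Values this low may be background. The gene gstt1.L was high in liver as well, and its pancreas values were 5.52% and 9.12% of the liver array of the same isolation. Summed liver markers were 2986 and 962 in pancreas, beside 66300 and 53003 in liver. Of the pancreas sums, ambp.L gave 1550 and 692, beside its 21382 and 16733 in liver. All liver markers but ahsg.L (9.95 and 107 in pancreas, 15.5 and 360 in liver) were lower in pancreas isolation 2 than in isolation 1. Among them, fgb.L had 51.1 and 6.62 in pancreas and 4375 and 3450 in liver. The part of stomach or liver tissue or RNA in the pancreas values was not tested. Smooth muscle markers were also highest in stomach: 7 genes summed to 1306 and 812 in pancreas, 693 and 617 in liver and 10926 and 7324 in stomach. All 7 had both stomach arrays above every other array. Neuron markers, 5 genes, summed to 177 and 188 in pancreas, 160 and 201 in liver and 823 and 560 in stomach. Erythrocyte markers, 7 genes, summed to 3662 and 3697 in pancreas, 14953 and 15030 in liver and 2496 and 2371 in stomach. For 7 leukocyte markers the sums were 397 and 377 in pancreas, 2014 and 1391 in liver and 422 and 297 in stomach. Of these, ctss.S gave 218 and 143 in stomach and 56.2 and 66.4 in pancreas. Every other leukocyte marker was lower in stomach than in pancreas in each isolation. Endothelium markers, 6 genes, summed to 675 and 614 in pancreas, 1041 and 936 in liver and 561 and 525 in stomach. Of these pecam1.L alone was highest in stomach, at 281 and 280. The part of all these cell types in the stomach or liver values of the transferases and of the other genes below was not tested.

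**Figure D2:**
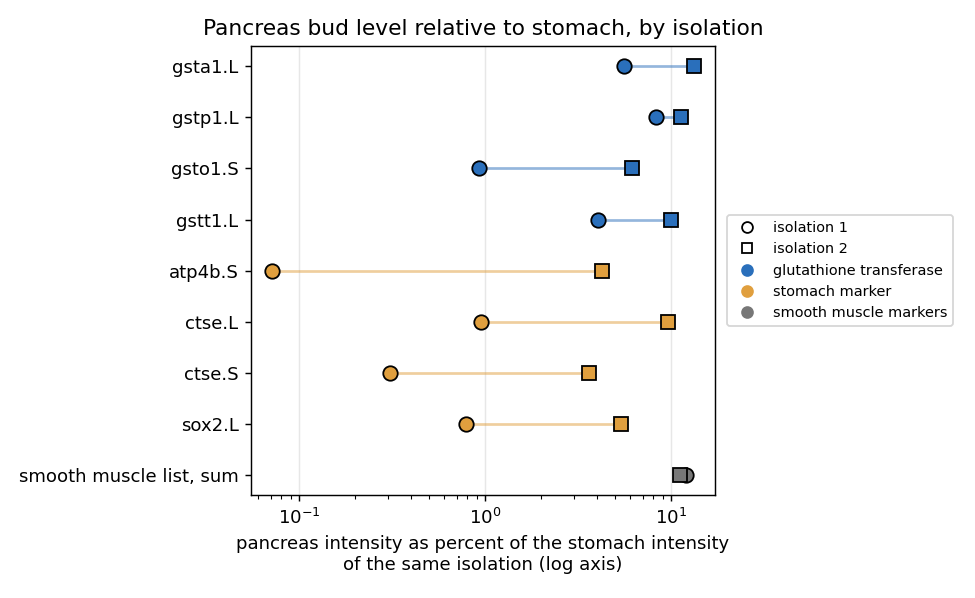
Pancreas intensity as a percentage of the stomach intensity of the same isolation (log axis), with circles for isolation 1 and squares for isolation 2, for the 4 glutathione transferases, 4 stomach markers and the summed smooth muscle markers. The points of gsto1.S, at 0.927% and 6.11%, fall among those of the stomach markers, whereas the smooth muscle sum is at 12.0% and 11.1%.

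The S copy of the alpha gene, gsta1.S, had 63.0 and 84.2 in pancreas, 46.1 and 90.7 in liver and 200 and 234 in stomach. Both stomach arrays were above all others, as for gsta1.L. In a limma fit across all 15491 probe sets with Benjamini-Hochberg adjustment, which is the test for every gene below, pancreas minus stomach was -1.57 (SE 0.382, adjusted p = 0.0752) and liver minus stomach -1.74 (SE 0.382, adjusted p = 0.0549). Neither was under the threshold of 0.05, below which a difference counts as called. With the isolation as a block both were, at adjusted p of 0.0477 and 0.0347. Whether the probe sets of the 2 copies bind each other's transcripts was not tested. Other copies of gstp1, gsto1 and gstt1 had no probe set with a symbol of their own and were not analysed here.

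Among 5 other soluble glutathione transferase genes, 2 were lower in pancreas than in stomach (4.39% of all probe sets were called lower there) and 1 was lower in pancreas than in liver (3.55%). None was called between liver and stomach by limma. There 2 had an unadjusted p under 0.05, as did 3737 of 15491 probe sets. With the isolation as a block 1 was called lower in liver (4.69% of all probe sets in that fit). The sigma class genes hpgds.L and hpgds.S encode an enzyme that in mammals also makes prostaglandin D2. For hpgds.L the values were 365 and 246 in pancreas, 5946 and 5306 in liver and 2846 and 1354 in stomach, with no overlap between organs. Pancreas lay 18.7-fold below liver (log2 difference -4.23, SE 0.420, limma adjusted p = 0.0113) and 6.55-fold below stomach (adjusted p = 0.0292). For hpgds.S they were 155 and 153 in pancreas, 460 and 404 in liver and 603 and 371 in stomach. It was 3.07-fold lower in pancreas than in stomach (limma adjusted p = 0.0383), and its difference of -1.48 from liver had an adjusted p of 0.0516.

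The mu class gene gstm1.S, like gstt1.L, was lowest in pancreas. It measured 1119 and 837 in pancreas, 3662 and 2360 in liver and 3357 and 2451 in stomach. The pancreas arrays lay below the rest, and liver and stomach overlapped. Pancreas minus liver was -1.60 (SE 0.328, limma adjusted p = 0.0583) and pancreas minus stomach -1.57 (adjusted p = 0.0541). With the isolation as a block these adjusted p were 0.0269 and 0.0315. With that block 4 of the 5 genes were called lower in pancreas than in stomach, as were 4.33% of all probe sets. The exception, gstcd.L, named for a C-terminal transferase domain, had 137 and 116 in pancreas, 117 and 109 in liver and 77.4 and 103 in stomach, and was called in no pair.

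**Figure D3:**
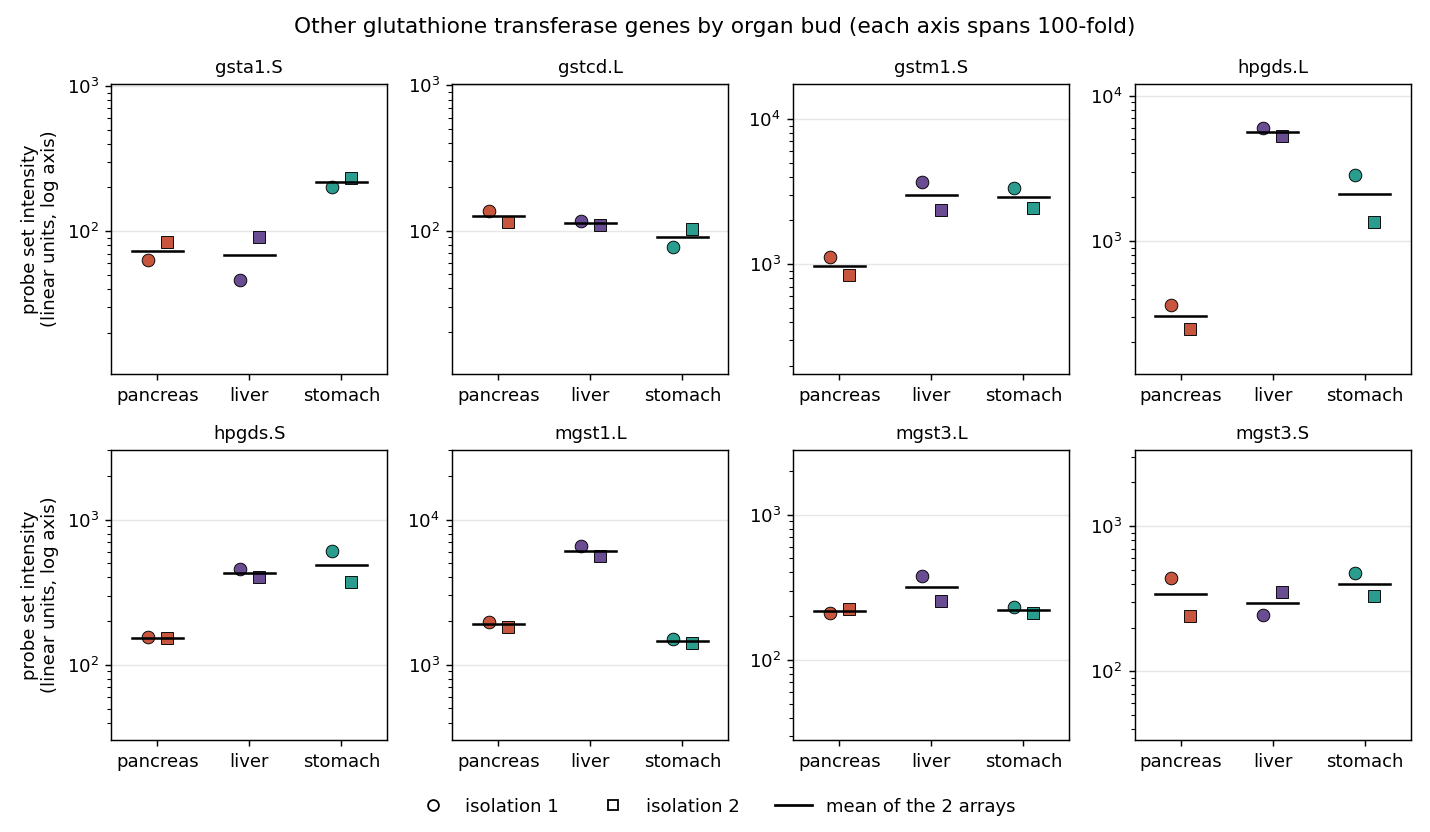
Intensity of 5 other soluble and 3 membrane glutathione transferase genes (log axes, each spanning the same fold) in pancreas, liver and stomach buds, with circles and squares for isolations 1 and 2 and bars at the means. The liver points of mgst1.L and hpgds.L are above all others, and the pancreas points of gstm1.S, hpgds.L and hpgds.S are below all others.

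The membrane-bound transferases form a separate protein family, and 3 of their genes were measured. The microsomal transferase gene mgst1.L had 1973 and 1824 in pancreas, 6545 and 5612 in liver and 1508 and 1403 in stomach. Pancreas lay 3.19-fold below liver (log2 difference -1.68, SE 0.196, limma adjusted p = 0.0154) and liver 4.17-fold above stomach (adjusted p = 0.00786). Liver stood alone, and pancreas minus stomach was 0.38 (SE 0.196, limma adjusted p = 0.291). The genes mgst3.L and mgst3.S were called in no pair, with means of 217 ± 10.3 and 339 ± 142 in pancreas, 316 ± 84.5 and 297 ± 77.2 in liver and 220 ± 13.4 and 402 ± 101 in stomach (SD, n = 2).

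Glutathione, the shared substrate, is made in 2 steps, the first by glutamate-cysteine ligase. Its catalytic subunit gene gclc.L had 98.4 and 117 in pancreas, 265 and 276 in liver and 717 and 540 in stomach, an order with no overlap between organs. It was 5.80-fold lower in pancreas than in stomach (log2 difference -2.54, SE 0.232, limma adjusted p = 0.0115), 2.52-fold lower in pancreas than in liver (adjusted p = 0.0403) and 2.30-fold lower in liver than in stomach (adjusted p = 0.0404). With the isolation as a block the last 2 adjusted p were 0.0564 and 0.0596. The modifier subunit gene gclm.L had 237 and 363 in pancreas, 358 and 419 in liver and 1267 and 833 in stomach. It was 3.50-fold lower in pancreas than in stomach (limma adjusted p = 0.0405, and 0.0637 with the block). Of the 7 synthesis genes, these 2 were lower in pancreas than in stomach (4.39% of all probe sets) and none was higher (3.59%). The median log2 difference was 0.15, beside 0.11 over all probe sets.

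Among 13 genes of glutathione reduction and peroxidases, 3 were lower in pancreas than in liver (3.55% of all probe sets) and 1 was lower in pancreas than in stomach (4.39%). Between liver and stomach, 2 were higher in liver (4.94%) and 2 lower (4.64%). Both copies of gpx3, the secreted glutathione peroxidase, were high in liver: gpx3.S averaged 62.4 ± 28.4 in pancreas, 1551 ± 238 in liver and 216 ± 118 in stomach, and gpx3.L 57.5 ± 15.8, 1291 ± 591 and 108 ± 0.0424 in the same organs (SD, n = 2). They were 26.1-fold and 21.7-fold lower in pancreas than in liver (limma adjusted p = 0.0135 and 0.00950). The peroxiredoxin gene prdx6.L, whose mammalian protein is reactivated by glutathione with the pi class transferase, was, like gstt1.L, lowest in pancreas. It had 124 and 95.6 in pancreas, 534 and 459 in liver and 650 and 332 in stomach, and was 4.56-fold lower in pancreas than in liver and 4.27-fold lower than in stomach (limma adjusted p = 0.0391 and 0.0389). Glutathione reductase gsr.L had 203 and 200 in pancreas, 91.7 and 131 in liver and 585 and 314 in stomach. It was 3.91-fold lower in liver than in stomach (limma adjusted p = 0.0370, and 0.0648 with the block). The other one lower in liver than in stomach was the peroxidase gene gpx1.L, named here after its values were seen, with 501 and 665 in pancreas, 292 and 377 in liver and 826 and 721 in stomach (limma adjusted p = 0.0484, and 0.0578 with the block). With the block neither gene was called lower in liver. Also named after its values were seen, gpx1.S had 233 and 410 in liver and 398 and 333 in stomach, which overlapped (limma adjusted p = 0.718). For prdx6.S, named likewise, both pancreas arrays were below the rest, but pancreas was not called against liver or stomach (limma adjusted p = 0.0670 and 0.219).

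Of 4 measured genes for enzymes that break down glutathione, its conjugates or other peptides, 2 were higher in pancreas than in stomach (3.59% of all probe sets) and 1 was higher in pancreas than in liver (2.7%). Aminopeptidase N, anpep.L, which removes single residues from peptides, had 982 and 803 in pancreas, 89.7 and 67.2 in liver and 59.9 and 128 in stomach. Pancreas lay 11.4-fold above liver and 10.1-fold above stomach (limma adjusted p = 0.0161 and 0.0189). The gamma-glutamyltransferase gene ggt1.L, whose enzyme starts the breakdown of glutathione outside the cell, averaged 188 ± 2.09 in pancreas, 167 ± 32.5 in liver and 67.2 ± 7.56 in stomach (SD, n = 2). It was 2.81-fold higher in pancreas and 2.47-fold higher in liver than in stomach (limma adjusted p = 0.0286 and 0.0310).

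NRF2 is the transcription factor through which many transferase genes respond to electrophiles in mammals. Of 8 genes of this pathway none was called between pancreas and stomach by limma. An unadjusted p under 0.05 was found for 5 of them, as for 3993 of 15491 probe sets. With the isolation as a block 3 were called lower, as were 4.33% of all probe sets. In 6 of the 8 both pancreas arrays lay below both stomach arrays, as in 24.2% of all probe sets, and the median log2 difference was -0.97, beside 0.11 over all probe sets. The gene of NRF2 itself, nfe2l2.L, named after its values were seen, had 481 and 347 in pancreas, 451 and 349 in liver and 1507 and 682 in stomach. Its pancreas minus stomach difference was -1.31 (SE 0.440, limma adjusted p = 0.144). The heme oxygenase gene hmox1.S was 2.79-fold lower in pancreas than in liver (limma adjusted p = 0.0495, and 0.0524 with the block). Its L copy, hmox1.L, named after its values were seen, had 481 and 522 in pancreas, 256 and 236 in liver and 359 and 221 in stomach, and its pancreas minus liver difference was 1.03 (SE 0.286, limma adjusted p = 0.111).

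Of 9 genes of other conjugating and detoxifying enzymes, 1 was higher (2.7% of all probe sets) and 2 were lower (3.55%) in pancreas than in liver, 1 was higher in pancreas than in stomach (3.59%) and 1 was higher in liver than in stomach (4.94%). The glucuronosyltransferase gene ugt1a6.S had 62.2 and 35.0 in pancreas, 3311 and 3077 in liver and 43.3 and 71.2 in stomach. It was 68.4-fold lower in pancreas than in liver and 57.5-fold higher in liver than in stomach (limma adjusted p = 0.00539 and 0.00514). Epoxide hydrolase ephx2.L was 5.64-fold lower in pancreas than in liver (limma adjusted p = 0.0380). With the isolation as a block 3 of the 9 were higher in liver than in stomach: ugt1a6.S, ephx2.L and ugp2.L. In that fit 1570 of 15491 probe sets were called between these organs in either direction. Named after its values were seen, ugp2.L had 551 and 361 in liver and 240 and 177 in stomach (limma adjusted p = 0.0911, and 0.0490 with the block). The sulfotransferase gene sult2b1.S stood 3.37-fold higher in pancreas than liver and 2.32-fold higher than in stomach (limma adjusted p = 0.0235 and 0.0493). Of 7 glyoxalase and other glutathione-dependent enzyme genes, 1 was called, esd.S, 2.12-fold higher in liver than in stomach (limma adjusted p = 0.0368). Its L copy, esd.L, named after its values were seen, overlapped between liver and stomach (limma adjusted p = 0.593). For other proteins with a transferase fold 9 genes were measured. Over all 15491 probe sets, 3734, 3993 and 3737 had an unadjusted p under 0.05 for pancreas minus liver, pancreas minus stomach and liver minus stomach. Of the 9 genes 1, 2 and 2 did, and none was called in any pair by limma, with or without the block. The 2 with the highest means, the elongation factor genes eef1g.L and eef1g.S, averaged 13717 ± 2470 and 1480 ± 307 in pancreas, 11686 ± 1010 and 851 ± 19.7 in liver and 10310 ± 267 and 985 ± 63.6 in stomach (SD, n = 2). The list of conjugate exporters had no probe set with a symbol of its own.

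**Figure D4:**
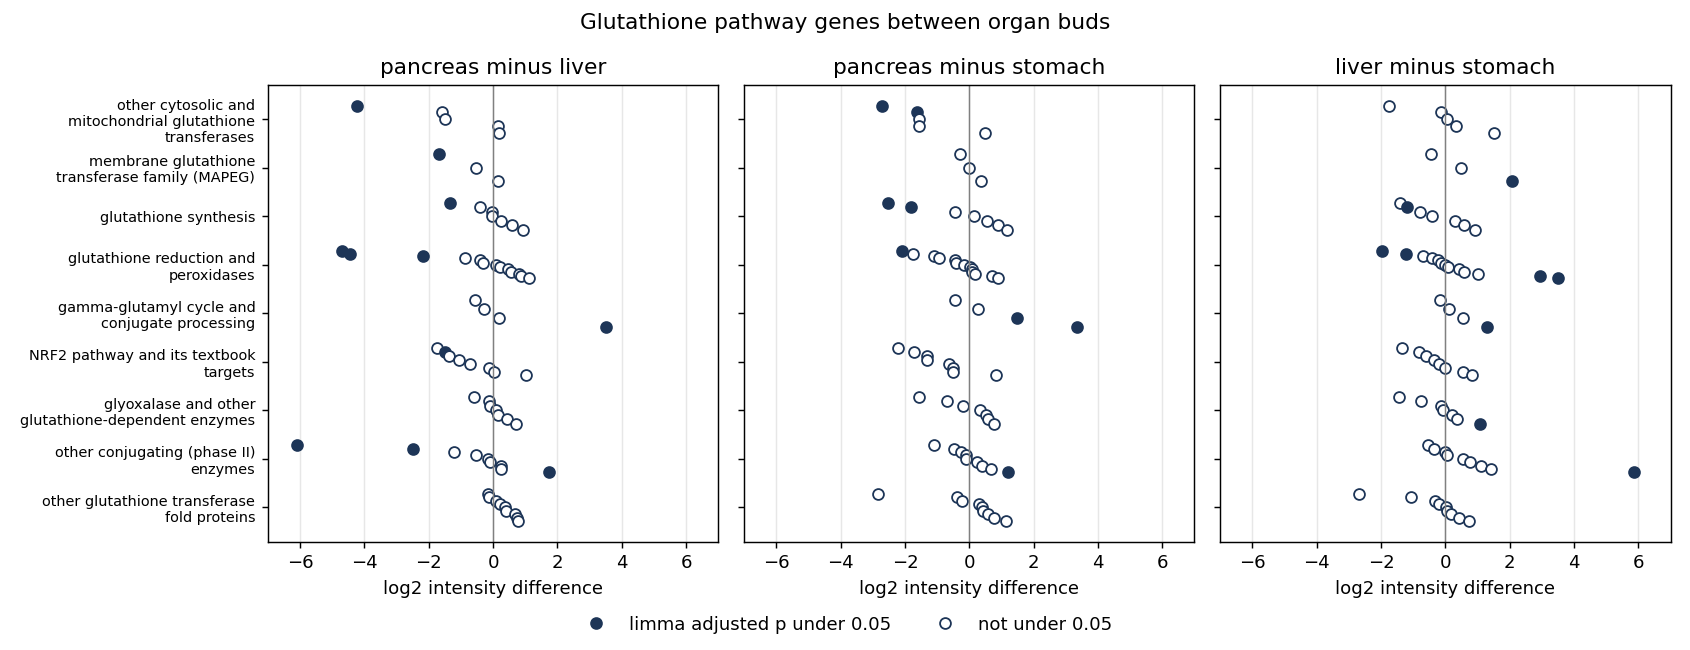
Log2 intensity differences between organ buds for the measured genes of 9 glutathione lists (the 4 genes gsta1.L, gstp1.L, gsto1.S and gstt1.L are left out), with filled points for a limma adjusted p under 0.05. For pancreas minus stomach 5 filled points are left of 0 and 3 right of it, and for pancreas minus liver 9 are left of 0 and 2 right of it.

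Over all 65 other genes of the lists, 2 were higher and 9 lower in pancreas than in liver, 3 were higher and 5 lower in pancreas than in stomach, and 6 were higher and 3 lower in liver than in stomach. Those are 16.9%, 12.3% and 13.8% of the genes, beside 6.26%, 7.98% and 9.59% of all probe sets. The list genes were brighter than most: 58 of the 65 passed the filter at the 40th percentile of mean intensity, as did 9295 of 15491 probe sets. With the isolation as a block 13 were called between pancreas and stomach in place of 8, with 3 higher and 10 lower in pancreas. Between pancreas and liver 2 were then higher and 9 lower in pancreas. Between liver and stomach 8 were higher and 1 lower in liver. That 1 was gsta1.S, and gclc.L, gpx1.L and gsr.L were no longer called there. Over all 15491 probe sets the block fit called 1055 for pancreas minus liver, 1289 for pancreas minus stomach and 1570 for liver minus stomach. With 1 array left out all counts fell, also where that array belonged to neither organ compared. Such a fit has fewer residual degrees of freedom, so the fall cannot be laid to the missing array alone. For pancreas minus liver, leaving out a stomach replicate gave 7 calls and leaving out a liver replicate 2, while 3 were called without pancreas replicate 1 and 1 without pancreas replicate 2. For pancreas minus stomach none was called by limma without pancreas replicate 1, pancreas replicate 2 or stomach replicate 1 (20, 19 and 19 had an unadjusted p under 0.05), 3 without either liver replicate and 4 without stomach replicate 2. For liver minus stomach, the count was 3 if liver replicate 1 was absent, 1 if stomach replicate 1 was absent and 4 without any other single array. Of 27 called differences among the genes named by rule, 2 stayed under the threshold whichever array was left out, both of ugt1a6.S.

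The genes nearest in pattern were found by the root mean square (RMS) difference of log2 intensities over the 6 arrays, each gene centred on its own mean, among 7527 other genes. For gsta1.L they were the netrin gene ntn5.L (RMS 0.273), the axonemal dynein gene dnai4.S (0.350) and the ciliary kinesin gene kif19.S (0.367). For gstp1.L they were the desmin gene des.1.S (0.277), which encodes an intermediate filament of muscle, the fatty acid elongase gene elovl7.L (0.358) and the transcription factor gene klf5.S (0.359). For gsto1.S they were cnfn.1.L (0.295), mal.L (0.327), which encodes a membrane protein of apical transport, and the acyltransferase gene mboat1.L (0.441). In the pancreas arrays, which were part of the measure of likeness, cnfn.1.L had 38.3 and 256, mal.L 61.7 and 217 and mboat1.L 4.40 and 21.2. For gstt1.L they were cyp26a1.L (0.417), which encodes a retinoic acid hydroxylase, the apolipoprotein gene apoa1.L (0.438) and the S copy of the elongase, elovl7.S (0.612). The distances between the transferases were 0.724 for gsta1.L and gstp1.L, 0.989 for gsta1.L and gsto1.S and 1.158 for gstp1.L and gsto1.S, and 1.903 to 2.384 between gstt1.L and the other 3.

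**Figure D5:**
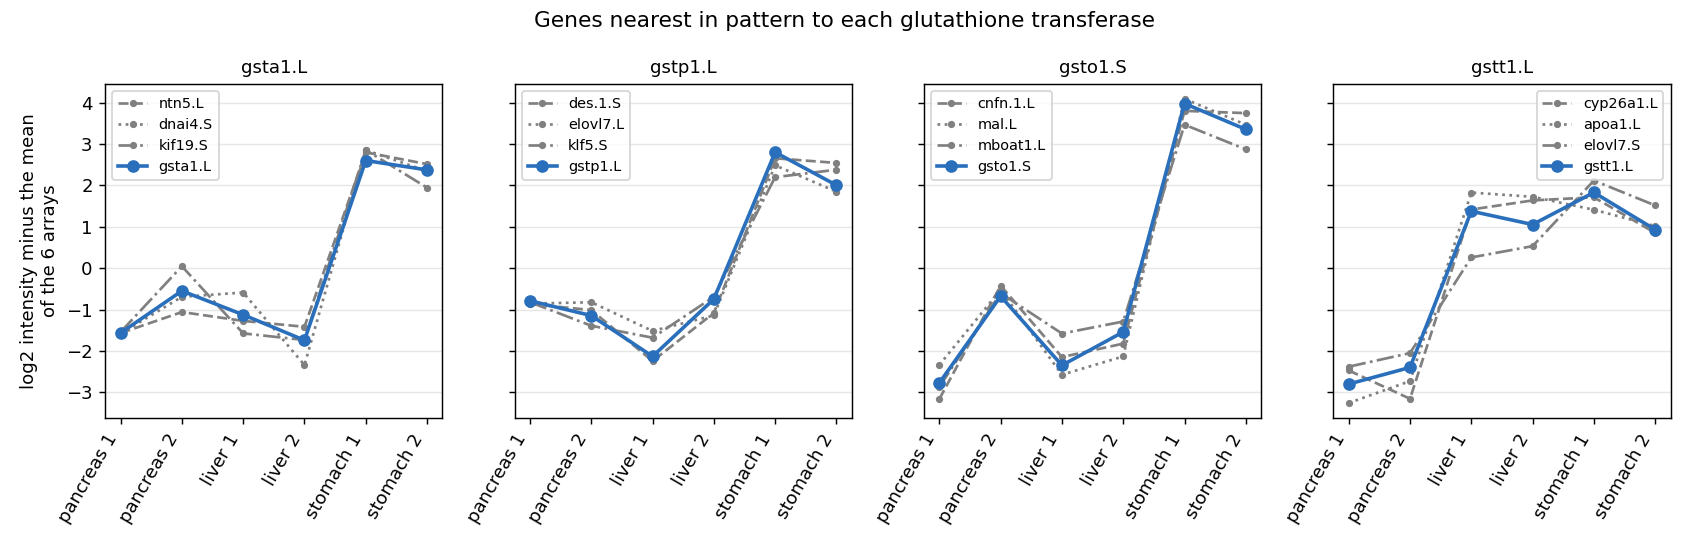
Log2 intensity minus the mean of the 6 arrays for each glutathione transferase (blue) and the 3 genes nearest to it in pattern (grey). The grey genes were picked for their likeness on these same arrays, so the match of the lines follows from the choice, and they lie closest for gsta1.L and gstp1.L (RMS from 0.273 and 0.277) and least close for gstt1.L (from 0.417).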

How the data were processed

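The authors deposited 1 table of linear intensity values, 1 column per array. Per the submitters' processing notes RMA was used (no version), and per the design text GeneData's Expressionist; further steps were not given in the sources used here. Over all 15611 rows each array had a median of 100, and 95th percentiles ran from 1248 to 1537, so arrays had been scaled to a common median. Their upper quantiles had not been made equal. How these linear values relate to the RMA named in the notes is not known, so they cannot be taken as its direct output. No detection calls or background values were used, so low values may be background. Precision is limited by the number of arrays.

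Organs and isolation numbers came from the titles. Titles with the same number carry the same code in all 3 organs. Between organs, deviations from the organ mean had correlations of 0.173 (pancreas and liver), 0.197 (pancreas and stomach) and 0.152 (liver and stomach), or 0.400 to 0.431 for means over 100. The numbers therefore pair the samples, but the main limma fit had no term for the isolation. The p-values given without the block leave this pairing out. How many embryos an isolation held is not given, and p-values measure only the spread between isolations.

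Control rows (120) were left out. Of 15491 probe sets 9304 had 1 symbol, 195 several and 5992 none; 9227 of the 9304 were found by identifier among RefSeq genes (Xenopus laevis v10.1). No coordinates or sequences are printed, since no sequence table was used. Log2 intensities were fitted with organ means in limma 3.58.1 (R 4.3.3) on all 6 arrays (3 residual degrees of freedom, prior 2.14), with Benjamini-Hochberg adjustment over all probe sets and a threshold of 0.05 ("called"). The fit was tested on simulated data with independent errors for each array, so that test did not cover the pairing of the isolations. Several probe sets of a gene were represented by the one with the highest mean. Folds are ratios of geometric means.

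The 4 transferase genes and the 10 lists were chosen with earlier results of these data known. Named genes follow a rule: all transferases of both families, up to 4 called genes of each other list by the largest called difference (if none, the 2 with the highest mean), and the 3 genes nearest in pattern. Alternatives were quantile normalization, log2 of the intensity plus 16, a filter at the 40th percentile of mean intensity, the isolation as a block, each array left out, the mean over a gene's probe sets, and the study's ANOVA.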

Additional observations from a re-analysis of the deposited data

How the results depend on the processing

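The 12 organ differences of the 4 transferase genes moved by less than their spread between isolations with quantile normalization and with 16 added. With 2 arrays per organ, leaving 1 out shifts a difference by a fixed part of the gap between isolations, which is no check of stability; the fold between pancreas and stomach of gsto1.S then ran from 20.3 to 86.9 and that between liver and stomach of gstp1.L from 8.89 to 23.2. Counts of called probe sets moved more. With 16 added they were 1720 for pancreas minus liver and 2129 for pancreas minus stomach, in place of 969 and 1236, and with dim probe sets left out 1816 and 2118. Of the 65 list genes, 58 were left without dim probe sets. Of these 19, 17 and 17 were called for pancreas minus liver, pancreas minus stomach and liver minus stomach. Over all 9295 probe sets left, 1816, 2118 and 1844 were called. The main fit called 11, 8 and 9 of the 65. With 16 added 15 were called for pancreas minus stomach and 15 for liver minus stomach, and with the replicate block 13 for pancreas minus stomach. With each array left out, limma calls ranged from 105 to 552 for pancreas minus liver, from 0 to 731 for pancreas minus stomach (0 without pancreas replicate 1 or stomach replicate 1, with 2819 and 2815 at an unadjusted p under 0.05) and from 303 to 966, in place of 1485, for liver minus stomach. For the list genes the ranges were 1 to 7, 0 to 4 and 1 to 4. A lone array was assumed to vary like those of the other organs. Each such fit also has fewer residual degrees of freedom, which lowers the counts for every pair of organs. The study's ANOVA among the organs had 4180 probe sets under an unadjusted 0.05 and 1 after Benjamini-Hochberg adjustment, in place of 1960 by the limma F test. Among 27 called differences of the list genes named by rule none changed sign with quantile normalization. The other alternatives applied to them could not change a sign, since the arrays of the 2 organs did not overlap in these differences. With the replicate block 5 of the 27 were lost. Among these genes, apart from the block values given with them, the block changed the call of gpx3.S for pancreas minus stomach (adjusted p = 0.0467) and of ephx2.L for liver minus stomach (0.0497). Probe sets carry no background values, so what low signal limits could not be measured.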
